A study of Mus musculus with 6 samples.

Results

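The Klf, Sp and Egr genes encode transcription factors that bind DNA through zinc fingers. They were followed here in mouse myoblasts, the cells that fuse into skeletal muscle fibres. Members were all non-control probes that the arrays annotate as Klf, Sp (1 to 9) or Egr genes, which gave 34 probes of 55681. They stood for 30 genes of 36406 gene names on the array, namely 17 Klf, 9 Sp and 4 Egr genes. The family was chosen by name and partly selected on the TGFb against untreated differences of these same arrays, in which several Klf genes were higher, so everything below on that contrast is a description and supports nothing about the family. No measurement in the series was independent of that choice.

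Treated cells had been exposed to transforming growth factor beta (TGFb), a secreted regulator of fibrosis, for 4 days, and were set against untreated cells. Each group held 3 arrays. All samples were primary myoblasts sorted by flow cytometry from skeletal muscle of 3-month-old male C57BL/6 mice and grown in serum-containing medium. The labels give neither the TGFb isoform and dose nor whether animals were pooled. One-colour Agilent arrays gave a Cy3 intensity per probe, which is stated here as log2 signal relative to the 75th percentile of its own array; 0 is that percentile and negative values are dimmer. Values of different probes are not compared with each other.

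Klf and Sp factors share a DNA-binding domain that recognises GC-rich boxes and CACCC boxes. Sp1 and Sp3 act in nearly all cells, whereas the Klf factors divide into activators and repressors of growth, lipid handling and differentiation. Egr factors bind a related GC-rich site and are immediate early genes, switched on within minutes of growth factor or serum signals through serum response factor at CArG boxes. Klf10 was first isolated as a gene that TGFb induces early, and in human skin fibroblasts TGFb induces EGR2. Klf2, Klf4 and Klf5 have known roles in myoblast fusion and muscle differentiation in the mouse.

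The quality of the arrays bears on every value. The 75th percentile of signal lay between 876 and 1569, and each array had 50.8% to 55.8% of its probes well above background. Per the file headers, scan day 1 held the arrays TGFb 1, untreated 1 and untreated 2, and scan day 2 held TGFb 2, TGFb 3 and untreated 3. Across genes, 2 arrays from 1 day but opposite groups had correlations of 0.970 to 0.977, whereas 2 arrays from 1 group but opposite days had correlations of 0.919 to 0.929. Results are therefore given without scan day and with scan day in the model, and within each day. The connective tissue growth factor gene Ccn2, a TGFb target used as a check of the treatment, was at 4.97, 5.11 and 5.04 on the TGFb arrays, against 1.90, 1.89 and 2.15 on the untreated arrays. Of 9 myoblast markers, 8 were well above background on all 6 arrays, among them Myod1, Pax7, Des and Cdh15. So were all 9 myotube markers, 4 of 8 fibroblast, 3 of 8 endothelial, 3 of 7 macrophage and 4 of 7 Schwann cell markers. The same held for 1 of 6 adipocyte, 1 of 7 erythroid and 0 of 6 epithelial markers. With scan day in the model, Des was lower after TGFb (log2 fold change -1.28, limma adjusted p = 0.0101) and Ncam1 was higher (1.29, adjusted p = 0.0106).

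The 250 bases before the transcription start are shown for genes whose values carry the description below. RefSeq (GRCm38.p6) supplied such a window for 22 of the 30 genes. The searched motifs, on both strands, were the GC box GGGCGG, the CACCC box CACCC, the Egr motif GCGNGGGCG (which overlaps a GC box where a G follows it), the CArG box, and the paired Smad element GTCTAGAC. Egr2 is shown by 30 bases with a CArG box in capitals, since such a box is the known entry point of serum response factor. Klf2, Klf4 and Klf6 are shown by the whole window with GC boxes and Egr motifs in capitals.

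Egr2 promoter, chr10:67537484-67537513, strand +: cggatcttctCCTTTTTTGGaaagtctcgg
Klf2 promoter, chr8:72318812-72319061, strand +: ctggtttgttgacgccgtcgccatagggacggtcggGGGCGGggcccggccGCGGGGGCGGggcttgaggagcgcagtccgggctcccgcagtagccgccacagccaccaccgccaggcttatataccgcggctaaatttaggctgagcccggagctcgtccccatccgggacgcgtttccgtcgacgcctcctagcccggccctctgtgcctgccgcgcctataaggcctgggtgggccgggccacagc
Klf4 promoter, chr4:55532476-55532725, strand -: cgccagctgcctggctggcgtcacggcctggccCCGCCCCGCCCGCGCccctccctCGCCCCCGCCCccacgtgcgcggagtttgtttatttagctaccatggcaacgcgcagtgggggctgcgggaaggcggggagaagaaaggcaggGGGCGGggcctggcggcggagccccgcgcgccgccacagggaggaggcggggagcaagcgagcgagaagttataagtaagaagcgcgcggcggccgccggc
Klf6 promoter, chr13:5861239-5861488, strand +: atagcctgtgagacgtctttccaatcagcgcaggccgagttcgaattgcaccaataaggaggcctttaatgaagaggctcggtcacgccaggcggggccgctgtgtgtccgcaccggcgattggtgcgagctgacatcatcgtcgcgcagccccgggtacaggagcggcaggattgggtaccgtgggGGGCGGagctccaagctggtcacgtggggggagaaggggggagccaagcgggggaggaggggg

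The printed CArG box of Egr2 lay 72 to 63 bases before 1 of the Egr2 starts. In all, 4 of the 5 Egr2 windows held a CArG box, but the others do not reach the printed one. A CArG box was found in windows of 2 of the 22 matched members, Egr2 and Klf8, and in 1.62% of 27025 genes with windows. The Egr motif was in 6 of 22 members (Klf2, Klf3, Klf4, Klf15, Sp3 and Sp4), against 5.33% of all genes. The GC box was in 17 of 22 members, against 35.4% of all genes, and the CACCC box in 17 of 22, against 54.5%. The paired Smad element was in none of the 22 windows and in 0.2% of all genes. These matches describe the letters of the windows only.

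Of the 30 genes, 24 had a probe that exceeded background clearly on 3 or more of the 6 arrays and entered the fit across 21960 genes, and 20 were well above background on all 6. With group as the only term, limma called none of the 24 members at an adjusted p under 0.05, where 0.697% of all genes passed as higher and 0.701% as lower. At an unadjusted p under 0.05, 6 members (Egr2, Klf6, Klf10, Klf13, Klf7 and Klf4) were higher, against 5.76% of all genes, and none lower. Over all 21960 genes, 2530 were under that p in either direction. With scan day in the model, 7 members passed as higher after TGFb, against 4.6% of all genes, and 2 passed as lower, against 5.54% (10.1% in either direction). The 7 were Egr2, Klf6, Klf2, Klf10, Klf7, Klf13 and Klf4, and the 2 were Klf5 and Klf14. They comprised 8 of 15 tested Klf genes, 0 of 7 Sp genes and 1 of 2 Egr genes, and these counts were not tested against each other. Without TGFb replicate 1, or without any 1 of the untreated arrays, the model with scan day called 1 member as higher. The median log2 fold change of the 24 members was 0.37 without and 0.31 with scan day, beside 0.05 and 0.04 over all genes tested. In such bulk RNA, fewer cells of a type and less RNA per cell cannot be told apart.

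**Figure D1:**
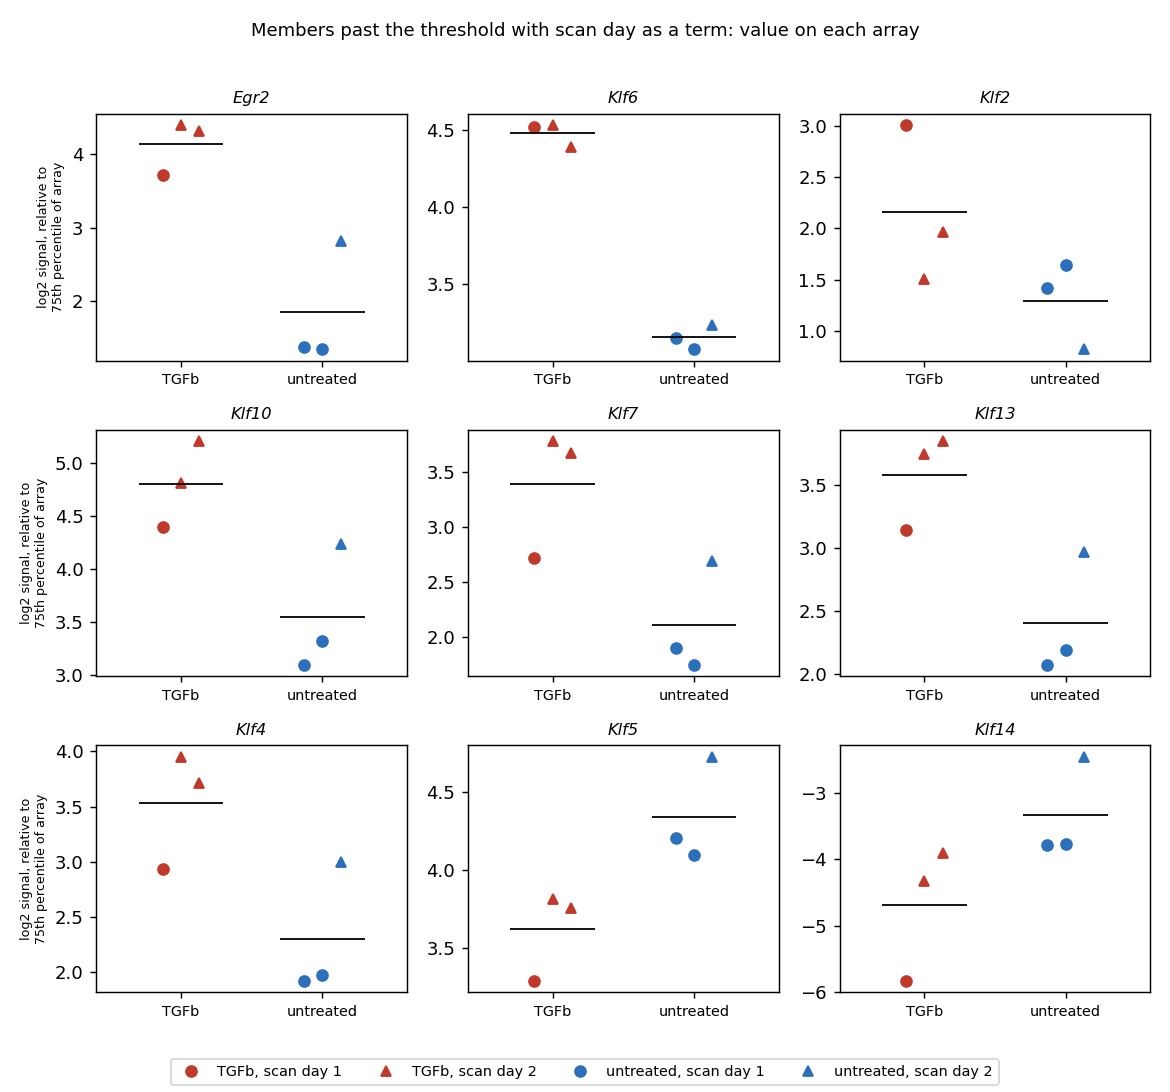
Log2 signal relative to the 75th percentile of each array (vertical axes) for the 9 members that passed with scan day in the model. Each point is 1 array, red for TGFb and blue for untreated cells, circles for scan day 1 and triangles for scan day 2; lines are group means (n = 3). For Klf6 the 3 TGFb arrays lie between 4.39 and 4.53 and the 3 untreated arrays between 3.08 and 3.24, while for Klf4 the day 1 TGFb array (2.94) lies level with the day 2 untreated array (3.00).

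Egr2 (Krox20), a factor known for hindbrain patterning and for myelination by Schwann cells, showed the largest positive difference among the members that passed. Its log2 signal was 3.72, 4.40 and 4.32 on the TGFb arrays, against 1.36, 1.33 and 2.82 on the untreated arrays. All TGFb arrays lay above all untreated arrays, and the highest untreated array was the one scanned on day 2. The log2 fold change was 1.95 ± 0.22 (SE, n = 3 per group; limma adjusted p = 0.00811) with scan day in the model, a 3.87-fold difference, and 2.31 ± 0.49 (adjusted p = 0.113) without it. Within day 1 it was 2.37 and within day 2 it was 1.54. Its probe lies at mm9 chromosome 10, 67004798 to 67004857. Egr2 was also the 1 member that passed in all 6 fits with scan day from which a single array was left out.

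The other Egr genes gave no such difference. Egr1, the best known immediate early member, was at 5.01, 4.08 and 5.11 on the TGFb arrays, against 4.41, 4.53 and 5.38 on the untreated arrays, so that the groups overlapped. Its log2 difference was 0.54 within day 1 and -0.78 within day 2, and -0.12 ± 0.42 with scan day in the model (adjusted p = 0.887). Egr3, needed for muscle spindles, and Egr4 were not well above background on any array. Egr3 read -6.63, -7.32 and -5.86 on the TGFb arrays and -7.23, -6.89 and -7.52 on the untreated arrays, values near the floor of the scanner signal.

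Klf6, a widely expressed activator known from liver fibrosis and wound responses, varied least between scan days among the members that passed. It was at 4.52, 4.53 and 4.39 on the TGFb arrays, against 3.15, 3.08 and 3.24 on the untreated arrays. The groups did not overlap, and the gap between them exceeded the range within either group. The log2 fold change was 1.32 ± 0.14 (limma adjusted p = 0.00719; 2.49-fold) with scan day in the model and 1.33 ± 0.23 (adjusted p = 0.0664) without it, with 1.40 within day 1 and 1.23 within day 2. The fitted difference between scan days was 0.03. Its probe lies at mm9 chromosome 13, 5869371 to 5869430.

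Klf10 and Klf11, the pair of TGFb-inducible repressors that recruit Sin3, were both measured. Klf10 was at 4.39, 4.81 and 5.21 on the TGFb arrays, against 3.09, 3.31 and 4.23 on the untreated arrays. Every TGFb array lay above every untreated array, with 1.19 between the groups on day 1 and 0.77 on day 2. The log2 fold change was 0.98 ± 0.20 (limma adjusted p = 0.0416) with scan day in the model and 1.26 ± 0.41 (adjusted p = 0.295) without it. Klf11 was at -1.05, -3.89 and -3.34 on the TGFb arrays, against -1.88, -1.56 and -3.83 on the untreated arrays. Its groups overlapped, the arrays of day 2 were the dim ones in both groups, and its value with scan day was 0.44 ± 0.23 (adjusted p = 0.297). The difference between Klf10 and Klf11 was not tested.

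Klf2 and Klf4 are close relatives that restrain proliferation, maintain vessel walls and, downstream of the kinase ERK5, promote fusion of mouse myoblasts. For Klf2 the arrays read 3.00, 1.51 and 1.96 after TGFb, against 1.42, 1.65 and 0.82 without it. The groups overlapped over all arrays but not within a scan day, where the differences were 1.47 and 0.91. Klf2 differed by a log2 fold of 1.19 ± 0.22 (limma adjusted p = 0.0325) with scan day in the model and 0.86 ± 0.47 (adjusted p = 0.583) without it. For Klf4 the arrays read 2.94, 3.95 and 3.71 after TGFb, against 1.92, 1.98 and 3.00 without it. Here too the overlap came from arrays of different scan days, and the differences were 0.99 within day 1 and 0.84 within day 2. Klf4 differed by a log2 fold of 0.91 ± 0.15 (adjusted p = 0.023) with scan day and 1.24 ± 0.44 (adjusted p = 0.346) without it. Of 8 endothelial markers, Cldn5, Emcn, Tek and Tie1 were well above background on no array, and Kdr, Pecam1 and Vwf on all 6. Vwf passed as lower with scan day in the model (-1.30, limma adjusted p = 0.0064), while Kdr (0.28, adjusted p = 0.405) and Pecam1 (0.60, adjusted p = 0.285) did not pass. The summed log2 signal of the list was -0.49 to 1.74 on TGFb arrays and -0.0047 to 2.06 on untreated arrays, and its part in the Klf2 and Klf4 values was not tested.

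Klf7, an activator studied in neurons and fat cell precursors, was at 2.71, 3.78 and 3.67 on the TGFb arrays, against 1.90, 1.74 and 2.69 on the untreated arrays. The lowest TGFb array exceeded the highest untreated one by a small margin. The log2 fold change was 0.97 ± 0.14 (limma adjusted p = 0.0175) with scan day in the model and 1.28 ± 0.43 (adjusted p = 0.312) without it, with 0.89 within day 1 and 1.04 within day 2. Klf13, a factor of lymphocytes and the heart, had 2 probes that differed. The brighter one, annotated to a cDNA clone with an apparent retained intron (mm9 chromosome 7, 71032482 to 71032541), was at 3.14, 3.75 and 3.85 after TGFb, against 2.07, 2.19 and 2.97 without it. It passed with scan day in the model (0.92 ± 0.14, adjusted p = 0.0197) and not without it (1.17 ± 0.37, adjusted p = 0.276). Within day 1 the difference was 1.01 and within day 2 it was 0.83. The probe annotated to the Klf13 mRNA (71082854 to 71082913) read 2.75, 2.73 and 2.75 after TGFb, against 2.56, 2.47 and 2.22 without it. Its groups did not overlap either, but its difference with scan day was 0.37 and it did not pass in a fit over all probes (adjusted p = 0.206). The call for Klf13 thus rests on the clone probe.

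The members that passed as lower were Klf5 and Klf14. Klf5, a factor of proliferating smooth muscle and epithelium that also works with MyoD in differentiating mouse myoblasts, was at 3.289, 3.816 and 3.754 on the TGFb arrays, against 4.202, 4.092 and 4.725 on the untreated arrays. All TGFb arrays lay below all untreated arrays, by 0.86 within day 1 and 0.94 within day 2. The log2 fold change was -0.90 ± 0.14 (limma adjusted p = 0.0182) with scan day in the model, a 1.87-fold lower level, and -0.72 ± 0.31 (adjusted p = 0.462) without it. The summed log2 signal of 9 myotube markers was 9.97 to 10.69 on TGFb arrays and 10.8 to 11.2 on untreated arrays. Of the 9, 5 (Acta1, Ckm, Myh8, Tnni1 and Tnnt3) passed as lower with scan day, against 5.54% of all genes. Myh3 (-0.26, limma adjusted p = 0.463), Tnnt1 (-0.14, adjusted p = 0.629), Myog (-0.51, adjusted p = 0.128) and Mymk (-1.09, adjusted p = 0.0527) did not pass. The part of these markers in the Klf values was not tested.

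Klf14, an imprinted intronless gene known as a regulator in fat, was dim. It read -5.83, -4.33 and -3.90 on the TGFb arrays, of which 2 of 3 were well above background, against -3.78, -3.77 and -2.45 on the untreated arrays, which all were. The groups did not overlap. The log2 fold change was -1.86 ± 0.19 (limma adjusted p = 0.0064) with scan day in the model and -1.35 ± 0.64 (adjusted p = 0.51) without it. Signals this close to background are less certain than those of the other members that passed.

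**Figure D2:**
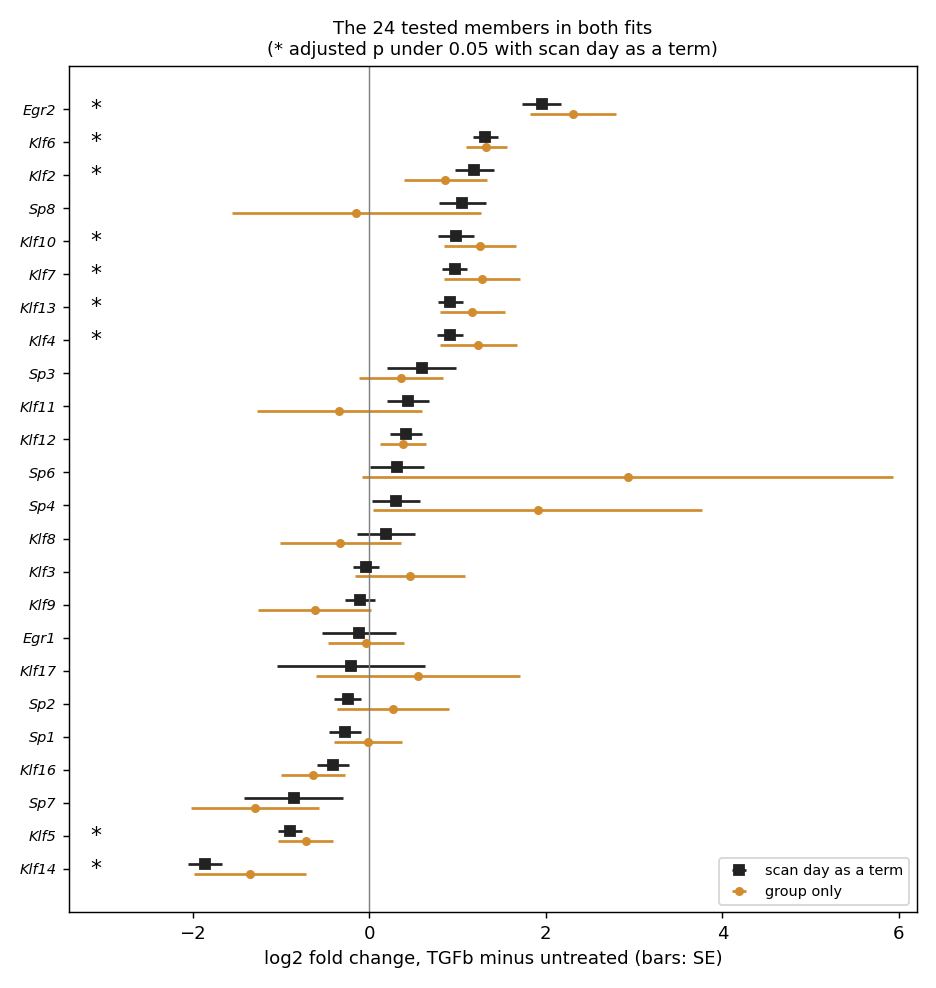
Log2 fold changes (TGFb minus untreated, horizontal axis) with their SE for the 24 tested members (rows), black squares with scan day in the model and orange circles with group only (n = 3 arrays per group). Asterisks mark the 9 members past the threshold with scan day; the bars of Sp6 (SE 3.01 against 0.30) and Sp4 (1.86 against 0.27) shorten most once scan day is a term.

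Over the 24 members, the sign of TGFb minus untreated was shared by day 1 and day 2 for 21, and by 67.9% of all genes. The groups did not overlap within either scan day for 10 members with TGFb higher (24.5% of all genes) and for 5 with TGFb lower (24% of all genes). Over all 6 arrays they did not overlap for 5 members with TGFb higher, against 8.5% of all genes, and for 2 with TGFb lower, against 9.49%. Since the same contrast chose the family, nothing is read from these counts. The members with opposite signs were Egr1, Klf8 and Klf17, and Klf17 was well above background on only 2 TGFb arrays and 1 untreated array.

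**Figure D3:**
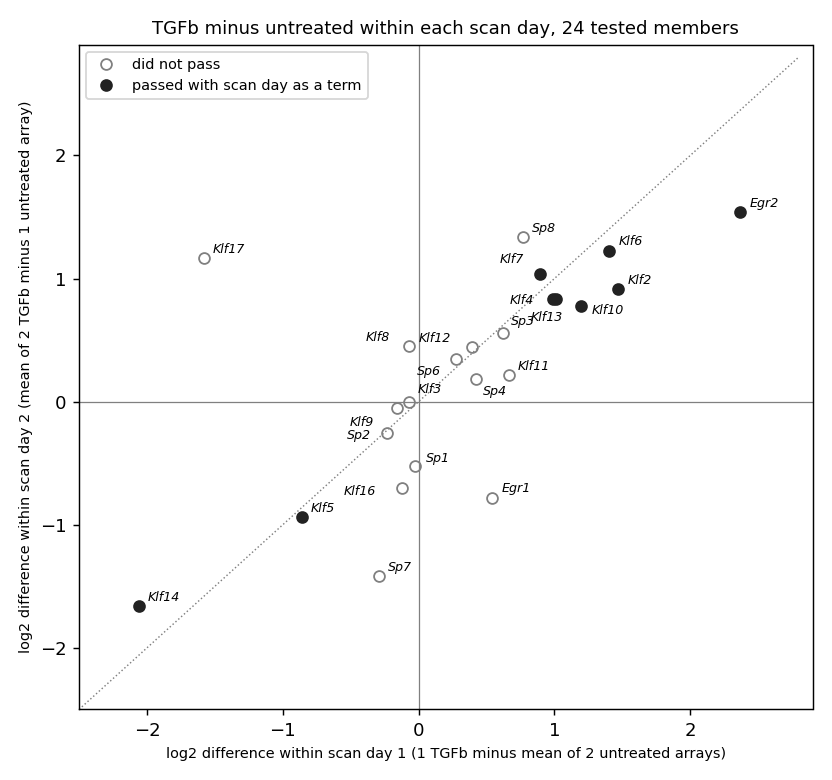
TGFb minus untreated log2 difference within scan day 1 (horizontal axis, 1 TGFb array and 2 untreated arrays) and within scan day 2 (vertical axis, 2 TGFb arrays and 1 untreated array) for the 24 tested members; filled points passed with scan day in the model. The 9 filled points have the same sign on both days, with Egr2 larger on day 1 (2.37) than on day 2 (1.54), and Klf17 and Egr1 lie far from the dotted line of equality.

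The remaining Klf genes did not pass in either fit. Klf9, a glucocorticoid-induced gene, read 1.43, -0.25 and 0.13 on the TGFb arrays, against 1.57, 1.62 and -0.01 on the untreated arrays. It thus followed the scan day rather than the group, with -0.10 ± 0.17 once scan day was a term (adjusted p = 0.738). Klf15, the glucocorticoid-induced regulator of amino acid and lipid use in muscle, was not well above background on any array. It read -7.63, -7.48 and -7.42 after TGFb and -7.50, -7.17 and -7.96 without it. Klf3, a CtBP-recruiting repressor, was bright at 3.76, 5.29 and 5.30 after TGFb and 3.95, 3.71 and 5.30 without it, and its difference with scan day was -0.04 ± 0.15 (adjusted p = 0.892). The other CtBP-recruiting repressors Klf8 and Klf12 had differences of 0.19 ± 0.33 and 0.42 ± 0.18 with scan day, and Klf16, which recruits Sin3, had -0.41 ± 0.18. Klf17, a germ cell factor, had -0.21 ± 0.84. Klf1, the erythroid activator of globin genes, was well above background on 2 of 6 arrays and was not tested.

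The Sp genes passed in neither fit, and some differed far more between scan days than between groups. Sp1, the general activator at GC boxes, was at 2.64, 3.23 and 3.11 on the TGFb arrays, against 2.58, 2.76 and 3.69 on the untreated arrays, and its difference with scan day was -0.27 ± 0.18 (limma adjusted p = 0.385). Sp3, its relative that activates or represses by context, was at -1.90, -3.09 and -2.16 on the TGFb arrays, against -3.05, -2.00 and -3.19 on the untreated arrays, with 0.59 ± 0.40 (adjusted p = 0.393). Sp2 had -0.24 ± 0.16 on its brighter probe. Its dimmer probe did not pass either (-0.24, adjusted p = 0.592 over all probes).

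Sp6, known from tooth development, read -3.66 on day 1 and 3.77 and 4.68 on day 2 after TGFb, against -3.69 and -4.18 on day 1 and 3.87 on day 2 in untreated cells. The fitted difference between scan days was 7.85 on the log2 scale, and the difference between groups was 0.31 ± 0.30. Sp4, a neuronal relative, showed 4.82 between days and 0.30 ± 0.27 between groups. Over the 24 members the scan-day difference was larger than the group difference for 15, among them all 7 tested Sp genes, and over all genes this held for 71.7%. Whether the scan itself or another property of the sets of arrays moved these probes was not tested.

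The dim Sp genes gave little. The bone factor Sp7 (osterix) was well above background on 1 TGFb array and 3 untreated arrays, with -0.86 ± 0.56 with scan day in the model. Sp8, a limb and forebrain factor, was well above background on 1 TGFb array and 2 untreated arrays, with 1.05 ± 0.27 (adjusted p = 0.0713). Its second probe was not well above background on any array. The Wnt target Sp5 was not well above background on any array, and Sp9 was on 2 of 6, so neither was tested.

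**Figure D4:**
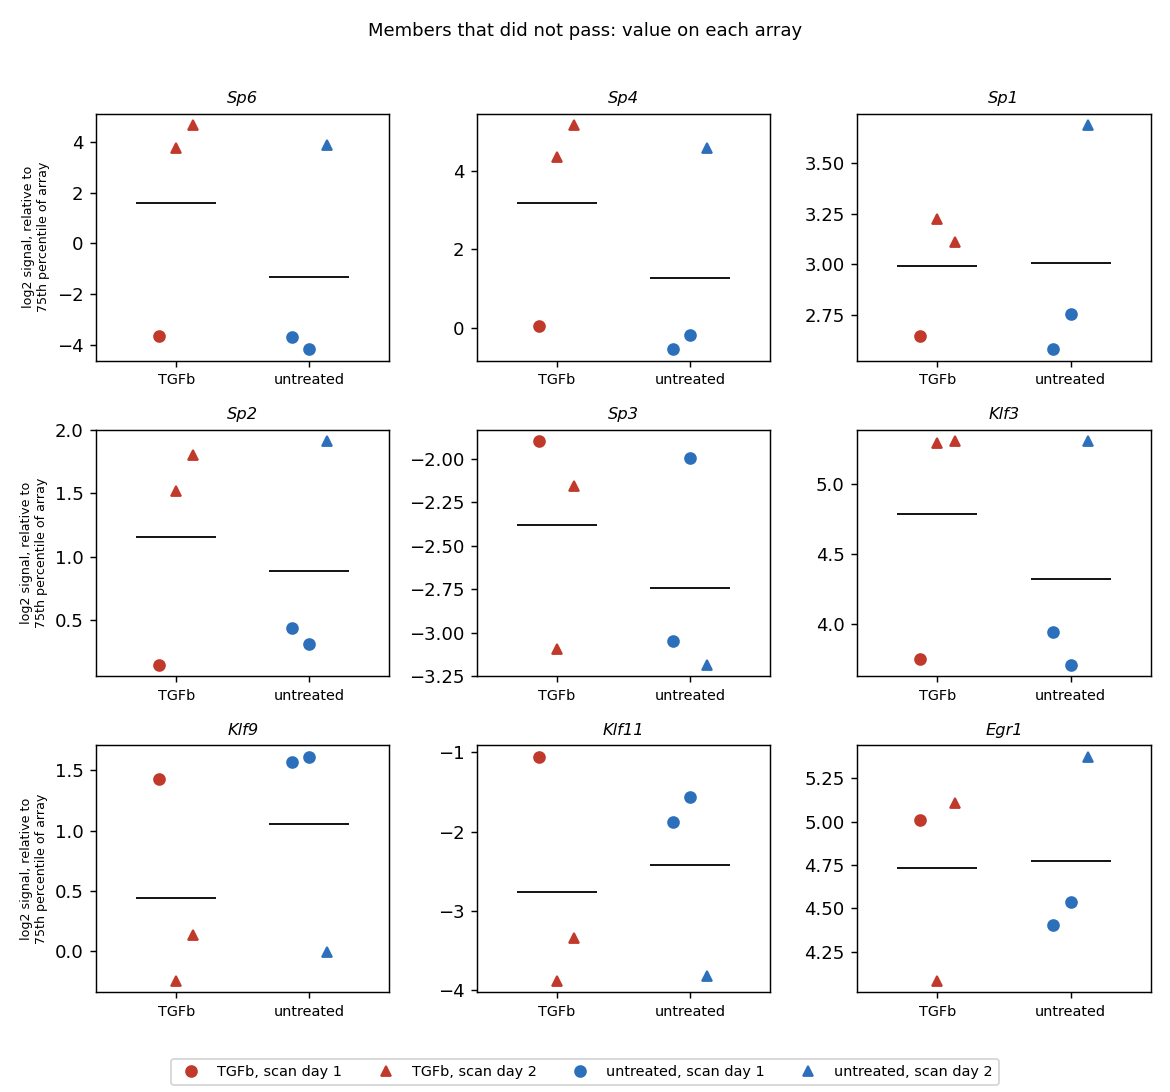
Log2 signal relative to the 75th percentile of each array (vertical axes) for 9 members that did not pass, red for TGFb and blue for untreated arrays, circles for scan day 1 and triangles for scan day 2; lines are group means (n = 3). Sp6, Sp4, Sp1, Sp2, Klf3, Klf9 and Klf11 split by scan day in both groups, while Sp3 and Egr1 did not. Sp6 lay between -4.18 and -3.66 on day 1 and between 3.77 and 4.68 on day 2.

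The authors' deposited table of normalized log2 values holds the same 6 arrays with a weaker split by scan day. In it, arrays of the same group from different scan days correlated at 0.991 to 0.993 across genes, and arrays of different groups from the same day at 0.978 to 0.983. Sp6 there was 11.07, 10.99 and 11.54 after TGFb, against 10.95, 10.75 and 10.93 in untreated cells, with no gap between days. Klf9 still split by day, at 11.59, 10.78 and 11.09 after TGFb, against 11.68, 11.77 and 10.99 in untreated cells. Fitted with group as the only term, that table had 7 members past the threshold as higher (7.16% of all genes) and 1 as lower (7.78% of all genes). The 7 were the members named above, with the smallest limma adjusted p for Klf6 (0.00165, log2 fold change 1.29) and the largest for Klf2 (0.0328, 1.01). Their log2 fold changes ran from 0.96 (Klf4) to 1.99 (Egr2). The 1 was Klf5 (-0.89, adjusted p = 0.00489). Klf14 was at -0.73 (adjusted p = 0.118). The table comes from the same arrays and is no separate check.

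**Figure D5:**
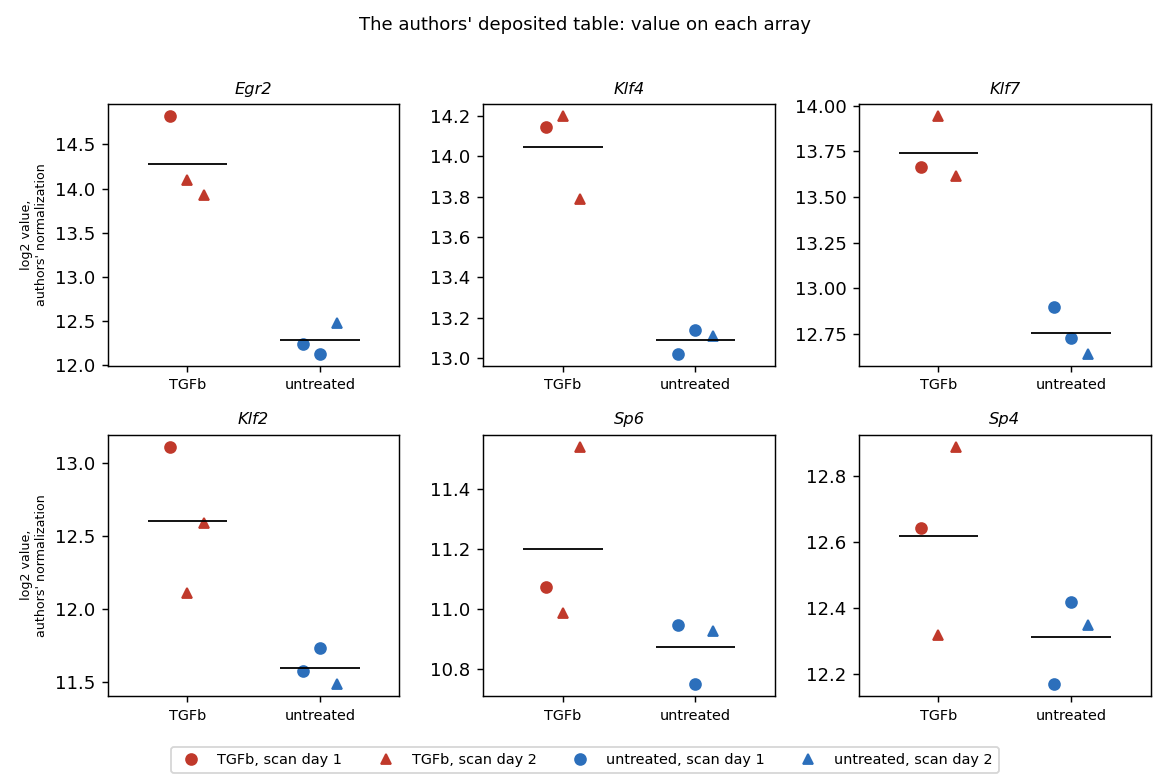
Values of the authors' deposited table (log2, vertical axes) for 4 members that passed with scan day in the model (Egr2, Klf4, Klf7, Klf2) and for Sp6 and Sp4, red for TGFb and blue for untreated arrays, circles for scan day 1 and triangles for scan day 2; lines are group means (n = 3). The groups do not overlap for Egr2, Klf4, Klf7 and Klf2, nor, by a small margin, for Sp6. The scan days no longer separate for Sp6 and Sp4.

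Genes that work with or upstream of these factors, and their known targets, were counted beside the shares of all genes, which with scan day in the model were 4.6% higher and 5.54% lower (median 0.04). Of 16 tested partners (corepressors, coactivators and ubiquitin ligases), 1 passed as higher and 0 as lower with scan day in the model, and the median log2 fold change was 0.15. The 1 was Fbxw7, a ubiquitin ligase adaptor that marks Klf2 and Klf5 for degradation (0.89 ± 0.16, limma adjusted p = 0.0312). Nab2, the corepressor of Egr factors that they also induce, had -0.64 (adjusted p = 0.0594). Among 18 upstream regulators, 1 passed as higher and 3 as lower (median -0.06), and nothing particular to either list is read from these counts. The ETS factor Elk3, a partner of serum response factor, was higher (1.23 ± 0.14, adjusted p = 0.00781), and Mef2c, a muscle factor that drives Klf2 in vessels, was lower (-1.74 ± 0.21, adjusted p = 0.00929), as were Mef2d (-0.85) and Smad3 (-1.19). Srf itself had -0.06 (adjusted p = 0.819). Without scan day, 0 genes of either list passed.

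Other immediate early genes gave mixed values. With scan day in the model 5 of 25 tested passed as higher and 1 as lower (median 0.34), against 4.6% and 5.54% of all genes (median 0.04). Without scan day 1 passed, against 1.4% of all genes in either direction. The orphan nuclear receptor Nr4a2 was higher in both fits (3.00 ± 0.17, limma adjusted p = 0.00188 with scan day; 2.77, adjusted p = 0.0277 without). Ier3, Ier5, Gadd45b and Ccn1 were the others, at 1.74, 1.53, 1.18 and 0.78, and the stress factor Atf3 was lower (-0.86, adjusted p = 0.0303). Fos had -0.60 (adjusted p = 0.339), Junb 0.89 (adjusted p = 0.0555) and Nr4a1 0.40 (adjusted p = 0.219).

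Glucocorticoid response genes other than Klf9 and Klf15 numbered 15 tested, of which 3 passed as higher and 2 as lower with scan day in the model (4.6% and 5.54% of all genes), and 0 without it. Fkbp5, Sgk1 and Fbxo32 were higher, at 0.90, 1.02 and 1.10, and Glul and the muscle ubiquitin ligase Trim63 were lower, at -1.28 and -1.13. Of 23 genes known as targets of a Klf, Sp or Egr factor, 7 passed as higher and 1 as lower with scan day (median 0.60, against 0.04 over all genes), and 2 as higher without it (Tagln and Thbs1). Thbs1 and Timp1 had 3.20 and 2.39 (limma adjusted p = 0.0026 and 0.00199), Tagln 1.98, Col1a1 1.80, Smad7 1.61, Col1a2 1.04 and Pdgfa 0.91, while the cell cycle inhibitor Cdkn1a had -0.94. Npnt, a target of Klf2 and Klf4 in mouse myoblast fusion, had -0.70 (adjusted p = 0.27). Many of these targets also answer to TGFb through Smad factors, so the list is not specific to the family. None of the 13 tested zinc finger relatives, such as Gli1 (0.86, adjusted p = 0.092), passed in either fit.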

How the data were processed

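RNA from 6 samples (3 TGFb, 3 untreated) was hybridised to 1-colour Agilent arrays. Per the file headers, the deposited intensity values are background-subtracted and spatially detrended output of Agilent Feature Extraction (version 10.7.3.1). A second file from the authors holds normalized log2 values; how they were normalized is not stated by the sources used here. Each of its columns (medians of 7.05 to 7.06 over probes) correlated best with the log2 signal of its own array (r = 0.992 to 0.993 across probes).

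Control and outlier spots (176 to 365 per array) were left out. Processed intensity was put on a log2 scale, the 75th percentile of each array was subtracted, and spots of a probe were averaged. Probes well above background on at least 3 of 6 arrays were tested, with the brightest probe for each gene (21960 genes). RefSeq accessions were matched for 26300 of 55681 probes, and 2839 names changed through them. Probe positions refer to mm9. No member probe was saturated.

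The fits used limma (version 3.58.1, under R 4.3.3), with group as the only term and again with scan day in the model. P-values were adjusted by Benjamini-Hochberg over all genes, with a threshold of 0.05. Only the fit with group as the only term was tested on simulated data, which held no scan-day difference. P-values measure the spread between these arrays. The labels call the experiments independent, but the scanner files of untreated replicates 1 and 2 carry the same number after the treatment name. The meaning of that number is not stated. These 2 arrays correlated at 0.996 across genes, against 0.982 for TGFb 2 and 3, the other pair from 1 group and 1 scan day. If untreated replicates 1 and 2 shared a culture, the p-values are too small, and whether they did was not tested. Same-numbered arrays of the 2 groups deviated from their group means with r = 0.81, -0.72 and 0.69 for numbers 1, 2 and 3. Across all pairs of a TGFb and an untreated array, r was positive within a scan day and negative between days. TGFb 2 and untreated 2 came from different days, so these values cannot tell whether the numbers pair the samples.

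The members, gene lists and the rule for naming genes were chosen with earlier results of these data known. Every member was named, with values per array for members that passed in either fit and for a set of well-known ones; Sp4, Sp6 and Klf3 were given per-array values after theirs were seen. From each list, genes that passed in either fit could be named, or else those with the smallest p (Gli1); Srf, Nab2, Fos, Junb, Nr4a1 and Npnt were picked after their values were seen. The alternatives are described in the closing section. The number of arrays limits the precision.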

Additional observations from a re-analysis of the deposited data

How the results depend on the processing

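Without scan day, none of the 24 tested members passed under normexp background, quantile or median scaling, either filter on dim probes, or the replicate block (which left 2 of all genes, and at median scaling 107, against 307). The replicate block changed no member call. Averaging the probes of a gene gave 1 higher member (Klf6). Fitting the authors' values gave 7 higher and 1 lower (3280 of all genes), adding scan day 7 and 2 (2227), and slide as a block 1 (Egr2) and 1 (Klf14) (790). Leaving out 1 array without scan day gave 0 to 1 higher members, 0 lower and 0 to 196 of all genes; the 1 was Egr2 without untreated replicate 3. At an unadjusted p under 0.05 limma had 1467 to 1640 genes in the 3 such fits that called 0 of all genes.

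With scan day in the model, leaving out 1 array gave 1 to 7 higher members, 0 to 2 lower and 329 to 3320 of all genes. Without TGFb replicate 1 the counts were 1 higher and 0 lower (699 of all genes), and without untreated replicate 1 they were 1 and 1 (682). Without untreated replicate 2 they were also 1 and 1 (617), and without untreated replicate 3 they were 1 and 0 (329). Most calls were thus lost without any 1 of these arrays. Without TGFb replicate 1 or untreated replicate 3, 1 scan day holds a single group and adds nothing to the group difference. How far the smaller design lowered the counts was not tested. Without TGFb replicate 2 the counts were 7 and 2 (1769). Klf14 passed in 4 of these 6 fits, Klf10 in 1, and Klf2, Klf4, Klf5, Klf6, Klf7 and Klf13 in 2. Alternatives combined with scan day were chosen after seeing the data. Normexp gave 7 higher and 2 lower (2504 of all genes), quantile scaling 7 and 2 (2616), the authors' values 7 and 2 (3345), and probes well above background on all arrays 7 and 1 (2558), where Klf14 was not tested. Median scaling gave 2 (Egr2, Klf6) and 2 (1851); it put the median of all genes at -0.15, against 0.04, and that shift applies to every member. No member that passed changed direction under it. Dim probes limit Klf14, Klf17, Sp7 and Sp8.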
